A study of Mus musculus with 12 samples.

Results

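Mouse embryonic stem cells taken through 1 day of monolayer differentiation were compared with undifferentiated cells of the same series. The comparison is between the levels of 4 of the 12 arrays, chosen by their labels alone. These are the arrays titled LIF (undifferentiated, replicates 1 and 2) and those titled MLd1 (monolayer day 1, written ML day 1 below, replicates 1 and 2). All 12 samples are labelled as embryonic stem cells of strain 129, with no transgene or other allele named. The source names call the arrays of a group clone 1 and clone 2, and the design text speaks of independent experiments by different people. The arrays of a group may thus differ by clone, operator and experiment at once. The spread behind each SE and p-value was estimated within the 6 groups of all 12 arrays, and p-values measure only that spread. The titles of the undifferentiated arrays name LIF, leukaemia inhibitory factor. The medium, the substrate of the monolayer and whether feeder cells were used are not given in the sources used here. Embryoid bodies at day 1 (EB day 1, floating aggregates, 2 arrays) and monolayers at day 3 (ML day 3, 2 arrays) served to place the day 1 monolayer among the other cultures.

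LIF binds a receptor pair of Lifr and Il6st (gp130), which activates Janus kinases and through them the transcription factor STAT3. STAT3 drives its own feedback inhibitor Socs3 and supports the naive state, in which factors such as Klf4, Nanog and Esrrb are expressed. When naive cells move towards the post-implantation epiblast, they keep Pou5f1 and Sox2, lose naive factors and gain Fgf5, Otx2, Pou3f1 and Zic2, a stage called formative and then primed. Primitive streak genes such as T and Mixl1 come on as gastrulation begins.

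Each array carried 43379 non-control spots. A spot is called well above background by the scanner software, which held for 63.1% and 63.8% of spots on the undifferentiated arrays and for 59.1% and 57.9% on the ML day 1 arrays. Levels are processed signals on a log2 scale, set to 0 at each array's 75th percentile. Levels of different genes come from different probes and are not set against each other. The level correlated across genes at 0.978 between the undifferentiated arrays and at 0.991 between the ML day 1 arrays, and 2084 genes (11.9%) lay at least 2-fold apart between the undifferentiated arrays against 724 (4.13%) in ML day 1. The undifferentiated arrays are on slide 1 and scan day 1 and the ML day 1 arrays on slide 4 and scan day 2. The version of the scanner software also differs between these groups. Mean background was 56.5 and 56.4 on the undifferentiated arrays and 29.5 and 31.0 on the ML day 1 arrays. The culture thus cannot be told apart from slide, scan day, software version and background. Processed signals and calls of well above background come from these software versions, whose part in the changes was not tested. Relative to each array's 75th percentile, E1A spike-in probes were brighter in ML day 1 than in undifferentiated cells by 1.26 log2 units on average, 10 of 10 probes. The same difference was 1.29 in EB day 1, 1.18 in embryoid bodies at day 3 and 1.09 in ML day 3, all on scan day 2. In embryoid bodies at day 4, on scan day 3, it was 0.001. With all genes split by mean brightness into 4 equal bins, the median log2 change was -0.04 in the dimmest bin (323 genes higher, 398 lower) and 0.39 in the brightest (894 higher, 88 lower). The part that brightness has in the gene changes was not tested.

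Of 17533 genes, limma called 3170 (18.1%) with Benjamini-Hochberg adjustment and a threshold of 0.05, 2043 higher (11.7%) and 1127 lower (6.43%) in ML day 1. The arrays of the groups did not overlap for 67.1% of all genes, so separation of 2 arrays against 2 is common and is given only as a description. Over all genes the median log2 change was 0.14. With 1 array left out, where the lone array is assumed to vary like the other groups, the count was 3434 without undifferentiated replicate 1, 778 without undifferentiated replicate 2, 300 without ML day 1 replicate 1 and 251 without ML day 1 replicate 2, and 159 genes were called in all 4 of these fits. Higher and lower calls in that order were 2162 and 1272, 376 and 402, 151 and 149, and 122 and 129. A fit on the 4 arrays alone called 165 higher and 159 lower, and quantile normalization 1236 and 1054, so the excess of higher calls was not kept under every setting. A call that ended when an array was left out is marked below by list, and genes called in all 4 such fits are named as such. Changes are log2, ML day 1 minus undifferentiated, with 2 arrays per group. The ± SE and the adjusted p-values come from limma over all genes, with the spread shared across 12 arrays in 6 groups. In bulk RNA, fewer cells of a type and less RNA per cell cannot be told apart.

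The labelled cell type was checked first. Pou5f1, Sox2, Nanog, Sall4 and Utf1, transcription factors and chromatin proteins of pluripotent cells, were well above background on all 4 arrays. Of the markers proposed for the day 1 monolayer, Fgf5 and Zic2 rose and Socs3 and Fos fell, as described with their groups. These markers were chosen with earlier results of these data known, so their directions are a description and no check of the label. None of them was called between ML day 1 and EB day 1, so they do not set the monolayer apart from embryoid bodies.

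**Figure D1:**
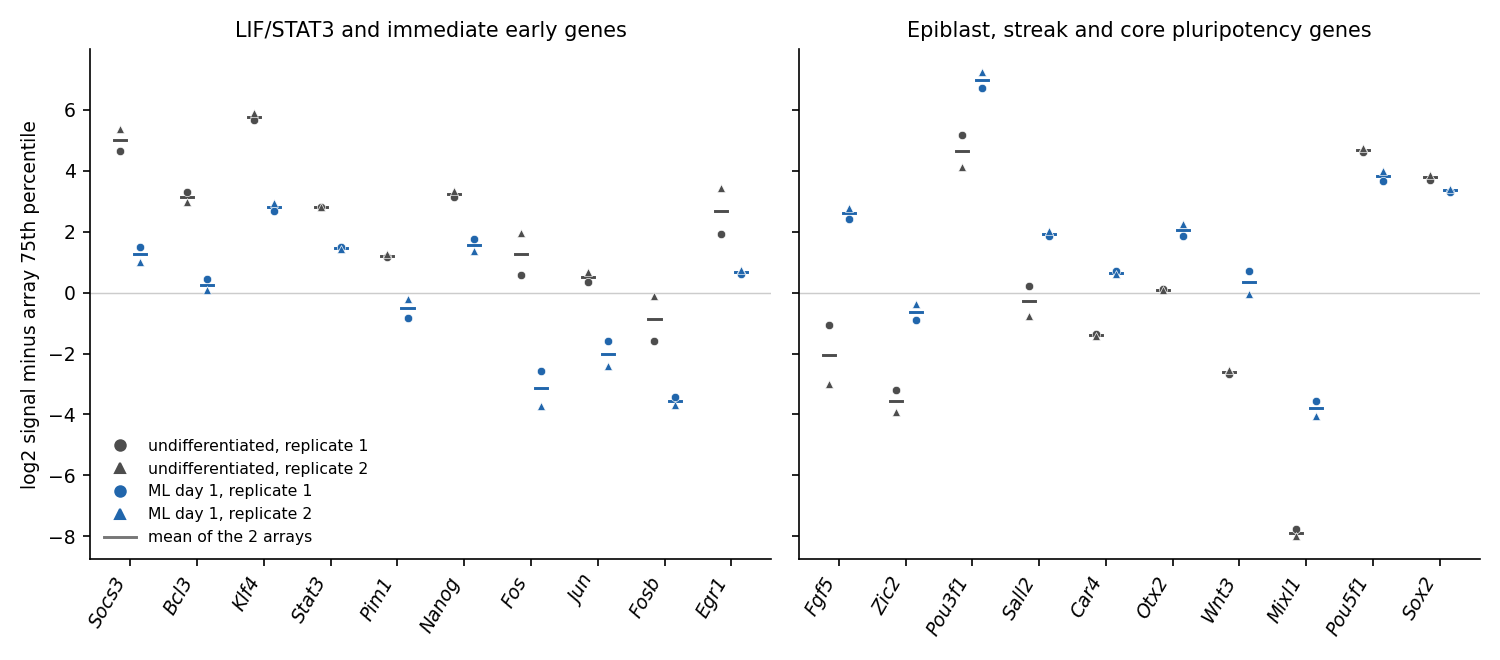
Level of 20 genes on each of the 4 arrays (y axis: log2 signal, 0 at the array's 75th percentile), undifferentiated in grey and ML day 1 in blue, circles for replicate 1, triangles for replicate 2, bars for the mean of 2 arrays. Socs3, Bcl3, Klf4 and Fos lie lower in ML day 1 on both arrays, Fgf5, Zic2, Car4 and Otx2 higher, while Pou5f1 and Sox2 were not called. Mixl1 was not well above background in undifferentiated cells.

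Along the receptor and kinase chain itself, 5 of 14 measured genes fell (6.43% of all genes did) and none rose, with a median change of -0.36 (all genes 0.14; -0.59 with quantile normalization, -0.19 with a strict filter). Stat3, the transcription factor at the end of the chain, stood at 2.80 and 2.80 in undifferentiated cells and 1.48 and 1.42 in ML day 1, 2 tight pairs that do not overlap (-1.35 ± 0.21, adjusted p = 0.00826, a 2.55-fold fall). Jak1, the kinase that gp130 mainly uses, went from 2.16 and 2.27 to 1.08 and 0.88 (-1.23 ± 0.21, adjusted p = 0.00973), although its 3 probes ranged from -2.10 to -0.43. Osmr, the oncostatin M receptor that also pairs with gp130, was not well above background on either ML day 1 array and fell at least 6.79-fold (adjusted p = 0.0209). Its level was -1.17 and -3.43 in the undifferentiated replicates, which lie far apart. Jak2 (-2.36 ± 0.71, adjusted p = 0.0484) and Stat5b (-1.36 ± 0.36, adjusted p = 0.0321) also fell. For Jak2 the undifferentiated replicates were -1.10 and 1.74, so its change was -3.78 to -0.94 with single arrays left out. Neither subunit of the LIF receptor was called, with log2 differences of -0.15 ± 0.43 for Lifr and -0.54 ± 0.22 for Il6st. Leaving out undifferentiated replicates 1 and 2 and ML day 1 replicates 1 and 2 in turn gave 5, 3, 0 and 0 lower calls.

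Of 17 measured targets of LIF and STAT3, 8 fell and 1 rose (6.43% and 11.7% of all genes did), with a median change of -1.13. The 8 include Stat3, already counted in the receptor list. They also include Fos and Klf4, counted again below among immediate early and naive genes, so the counts of these lists are not separate. In 14 of 17 the groups did not overlap, where 67.1% of all genes had no overlap. The promoter of Socs3 is shown because Socs3 is the textbook direct STAT3 target of this group, and those of Bcl3 and Fos because they are the other members called in all 4 leave-one-out fits. Each line gives the 250 bases before the RefSeq transcription start in GRCm38.p6, 5′ to 3′ on the gene's strand, with any match to the STAT motif TTCNNNGAA in capitals. The windows are chr11:117969367-117969616, minus strand, chr7:19822756-19823005, minus strand, and chr12:85473640-85473889, plus strand.
Socs3: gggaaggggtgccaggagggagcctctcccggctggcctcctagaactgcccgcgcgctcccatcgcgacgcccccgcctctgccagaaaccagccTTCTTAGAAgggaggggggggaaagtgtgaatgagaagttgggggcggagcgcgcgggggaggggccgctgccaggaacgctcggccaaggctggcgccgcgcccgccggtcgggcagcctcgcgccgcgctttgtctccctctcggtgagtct
Bcl3: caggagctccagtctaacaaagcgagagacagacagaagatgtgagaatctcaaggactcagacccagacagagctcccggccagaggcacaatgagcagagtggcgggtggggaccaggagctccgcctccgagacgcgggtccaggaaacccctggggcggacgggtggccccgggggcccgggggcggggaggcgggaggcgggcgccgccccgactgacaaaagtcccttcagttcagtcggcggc
Fos: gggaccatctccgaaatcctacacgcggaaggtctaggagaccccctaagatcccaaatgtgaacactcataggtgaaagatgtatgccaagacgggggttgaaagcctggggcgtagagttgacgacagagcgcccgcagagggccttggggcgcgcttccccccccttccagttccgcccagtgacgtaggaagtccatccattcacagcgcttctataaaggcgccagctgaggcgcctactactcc
The Socs3 window holds TTCNNNGAA once, with its first base at -154 from the start, and the Bcl3 and Fos windows hold none. Sites outside these 250 bases were not searched, so a gene without a match here may have one elsewhere. The motif occurs on either strand in 7.02% of all 32851 RefSeq windows of that length, and in 2 of the 14 list members with a window (Socs3 and Icam1). A member counts if any of its windows holds the motif, while the share is by window. The cyclic AMP response motif TGACGTCA was in none of the 14 (1.55% of all windows). A match describes letters and is not evidence of binding.

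Socs3, the inhibitor that shuts down gp130 signalling, stood at 4.64 and 5.36 in undifferentiated cells and 1.50 and 1.00 in ML day 1 (probe on chromosome 11, 117827480 to 117827539, build mm9). That is a 13.5-fold fall (-3.75 ± 0.27, adjusted p = 0.000616), called in all 4 leave-one-out fits. Bcl3, an IκB-like cofactor of NF-κB, went from 3.29 and 2.97 to 0.43 and 0.07 and was likewise called in all 4 (-2.88 ± 0.26, adjusted p = 0.00124, 7.35-fold). Klf4, a naive-state transcription factor, went from 5.65 and 5.88 to 2.68 and 2.94 (-2.96 ± 0.45, adjusted p = 0.00733, 7.76-fold), a call that ended without ML day 1 replicate 1 (adjusted p = 0.0549). In each of these 3 genes the gap between groups is several times the gap between replicates. The serine/threonine kinase gene Pim1 went from 1.15 and 1.25 to -0.82 and -0.21 (-1.71 ± 0.31, adjusted p = 0.0111), and Pim3 fell 2.19-fold (adjusted p = 0.0198). The third kinase of that family moved the other way: Pim2 went from 3.21 and 2.51 to 4.78 and 4.86, a 3.89-fold rise (1.96 ± 0.38, adjusted p = 0.0137). The adhesion molecule gene Icam1 also fell (-1.64 ± 0.36, adjusted p = 0.019). Among members not called, the log2 difference was -1.13 ± 0.48 for Tfcp2l1, -0.97 ± 0.42 for Junb, -0.36 ± 0.44 for Klf5 and 0.72 ± 0.29 for Socs2. Myc was 2.07 and -0.70 in the undifferentiated replicates and 2.49 and 2.81 in ML day 1, with undifferentiated replicate 1 close to the ML day 1 arrays and replicate 2 far lower, and was not called (adjusted p = 0.077). Leaving out the same 4 arrays in turn gave 8, 5, 3 and 5 lower calls, and a fit on the 4 arrays alone gave 4.

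Embryoid bodies at day 1, set against the same undifferentiated arrays, had 2 of the 17 higher (8.09% of all genes) and 8 lower (5.45%), and gave -3.81 for Socs3, -3.09 for Bcl3, -3.79 for Klf4 and -2.31 for Pim1 on the log2 scale. The comparisons share their control arrays, so these values are not independent of those above. Tested directly against EB day 1 within 1 scan day, no LIF and STAT3 target was called in ML day 1 (0.131% of all genes were), and the differences were 0.06 ± 0.27 for Socs3, 0.21 ± 0.26 for Bcl3 and 0.84 ± 0.45 for Klf4.

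Immediate early genes, which encode the AP-1 subunits of the Fos and Jun families and related factors that mitogens switch on within minutes, fell in part. Of 22 measured, 6 fell and 1 rose (6.43% and 11.7% of all genes did), with a median change of -0.99. Fos stood at 0.58 and 1.96 in undifferentiated cells and at -2.59 and -3.71 in ML day 1 (probe on chromosome 12, 86817900 to 86817959, mm9). It fell 21.4-fold (-4.42 ± 0.57, adjusted p = 0.00433) and was called in all 4 leave-one-out fits, in which the change ran from -5.11 to -3.73, the least without undifferentiated replicate 2. Jun, its usual partner, went from 0.34 and 0.66 to -1.60 and -2.39 (-2.50 ± 0.46, adjusted p = 0.0114). Fosb went from -1.60 and -0.11 to -3.42 and -3.70 (-2.70 ± 0.43, adjusted p = 0.00855). In all of them undifferentiated replicate 2 is the higher array of its pair. The zinc finger genes Egr1 (1.92 and 3.44 to 0.60 and 0.75, adjusted p = 0.0386) and Egr2 (-1.46 and 0.92 to -3.42 and -2.60, adjusted p = 0.0384) fell with a wide spread between the undifferentiated replicates, and both calls ended without undifferentiated replicate 2 or either ML day 1 array. Zfp36, which encodes a protein that destabilises AU-rich mRNAs, fell by a smaller step (-0.66 ± 0.18, adjusted p = 0.0368). Srf, the transcription factor that serum growth factors act through, rose (0.63 ± 0.18, adjusted p = 0.0434), a call lost with any single array left out and with quantile normalization. Lower calls in the list numbered 6, 2, 2 and 1 as undifferentiated replicates 1 and 2 and ML day 1 replicates 1 and 2 were left out in turn.

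Of 11 measured FGF ligands and receptors 1 rose, near the 11.7% of all genes. FGF signalling through ERK is the pathway that moves naive cells towards the epiblast, and Fgf5 is its best known epiblast ligand. Fgf5 stood at -1.08 and -2.99 in undifferentiated cells and at 2.41 and 2.78 in ML day 1 (probe on chromosome 5, 98705980 to 98706039, mm9), the largest log2 increase among called genes with a symbol and separated arrays. The rise was 24.8-fold (4.63 ± 0.58, adjusted p = 0.00399), called in all 4 leave-one-out fits. The change ran from 3.68 to 5.59 in those fits, smallest without undifferentiated replicate 2, and the call ended in a fit on the 4 arrays alone. None of the other 10 measured FGF ligands and receptors was called, including Fgf8 (0.16 ± 0.46). Fgf4 was not analysed here. Among 13 ERK feedback and ETS targets, the phosphatase gene Dusp4 alone rose (1.48 and 1.50 to 2.87 and 2.73, adjusted p = 0.0391), a call lost with any single array left out. Dusp6, the ERK phosphatase often read as a gauge of the pathway, had a difference of 0.61 ± 0.33 and was not called.

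Of 10 measured genes of the core pluripotency network, 1 fell and 1 rose, with a median of 0.60. With quantile normalization or the authors' values 2 fell and 1 rose, and the median was 0.25. Nanog fell 3.19-fold, from 3.14 and 3.33 to 1.75 and 1.37 (-1.67 ± 0.37, adjusted p = 0.0194), and Lin28a, an RNA-binding protein that blocks let-7 maturation, rose from 2.78 and 2.55 to 3.80 and 3.70 (1.08 ± 0.19, adjusted p = 0.0108). Both calls ended without undifferentiated replicate 2 or either ML day 1 array. Pou5f1 was 4.60 and 4.73 in undifferentiated cells and 3.67 and 4.00 in ML day 1 (-0.83 ± 0.34, adjusted p = 0.121). Sox2 was 3.69 and 3.87 and 3.32 and 3.40 in the same order (-0.42 ± 0.35). Neither was called in the main fit, though their arrays do not overlap between the groups. Sall4 (0.61 ± 0.21) and Utf1 (1.27 ± 0.55) lay higher without a call. The count of 1 higher and 1 lower among 10 is near the background of all genes.

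Of 20 measured naive pluripotency genes, 3 fell (Klf4, Nanog and Jam2) and none rose, where 6.43% of all genes fell and 11.7% rose. The median change was -0.58. Jam2, a junctional adhesion molecule, had very close replicates, 3.25 and 3.27 against 1.77 and 1.78 (-1.48 ± 0.34, adjusted p = 0.0211), but its second probe gave -0.78 and the mean of its probes was not called. Not called were the nuclear receptor Esrrb (-1.06 ± 0.60), Zfp42 or Rex1 (-0.28 ± 0.41), Klf2 (0.14 ± 0.21) and Nr0b1 (0.57 ± 0.73). Tbx3 (-2.24 ± 0.87) and Tet2 (-1.44 ± 0.55) had larger differences that did not pass. With the 4 arrays left out in turn the lower calls numbered 3, 1, 0 and 1.

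Genes of the formative and primed epiblast rose in part by day 1. Of 21 measured, 10 rose and none fell, where 11.7% of all genes rose. All 21 changes were above 0, with a median of 1.42, and 16 of 21 separated the groups. Positive changes numbered 19 with quantile normalization, 17 without undifferentiated replicate 2 and 18 without ML day 1 replicate 2. Zic2, a zinc finger factor of the epiblast and early neural plate, stood at -3.21 and -3.93 in undifferentiated cells and -0.92 and -0.39 in ML day 1 (probe on chromosome 14, 122878810 to 122878869, mm9). It rose 7.55-fold (2.92 ± 0.29, adjusted p = 0.00207). Car4, which encodes a membrane-bound carbonic anhydrase, went from -1.34 and -1.44 to 0.72 and 0.59, with replicates almost equal in both groups (2.05 ± 0.20, adjusted p = 0.00198). With Fgf5, these are the 3 members called in all 4 leave-one-out fits.

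Otx2, the homeobox factor that directs the exit from the naive state, went from 0.11 and 0.09 to 1.85 and 2.25 (1.95 ± 0.28, adjusted p = 0.00598, 3.87-fold), and its call ended without ML day 1 replicate 2 (adjusted p = 0.0516). Its POU-domain partner Pou3f1 (Oct6) went from 5.17 and 4.11 to 6.71 and 7.22 (2.33 ± 0.48, adjusted p = 0.0163). Sall2 (2.21 ± 0.41, adjusted p = 0.0123), the epithelial factor Grhl2 (1.50 ± 0.30, adjusted p = 0.0141) and Foxd3 (2.54 ± 0.75, adjusted p = 0.0461) rose too. For Foxd3 the undifferentiated replicates were 0.14 and -2.54, and without replicate 2 the change dropped to 1.20. Nodal, the TGF-beta ligand of the epiblast, rose from 3.15 and 2.59 to 3.95 and 4.08 (adjusted p = 0.0439). Sox11 rose by its brightest probe (1.02 ± 0.27, adjusted p = 0.0326), while its 6 probes disagree (-1.07 to 1.02) and their mean gave -0.20. The de novo methyltransferase gene Dnmt3b (1.70 ± 0.55, adjusted p = 0.0603) and the Wnt effector Lef1 (1.59 ± 0.56, adjusted p = 0.0778) missed the threshold. The calls of Foxd3 and Nodal ended with quantile normalization.

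Undifferentiated replicate 1 was higher than replicate 2 in 20 of these 21 genes, by a median of 0.98, so the size of the group's change depends on which replicate is used. The median change was 1.83 without replicate 1 and 0.87 without replicate 2. The number of members that rose was 13, 4, 4 and 3 with undifferentiated replicates 1 and 2 and ML day 1 replicates 1 and 2 left out in turn, and 3 in the fit on the 4 arrays alone. Embryoid bodies at day 1, measured against the same undifferentiated arrays, gave 5.80 for Fgf5, 3.39 for Zic2, 2.36 for Otx2 and 1.78 for Car4. Against EB day 1 itself no member was called, with differences of -1.16 ± 0.58 for Fgf5 and -0.47 ± 0.29 for Zic2.

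Of 9 measured DNA methylation enzymes 1 rose and 1 fell, near the shares of all genes (11.7% and 6.43%). Tet1, which oxidises methylcytosine, fell from 1.62 and 1.78 to 0.54 and 0.51 (-1.18 ± 0.23, adjusted p = 0.0142). Dnmt3l, the catalytically inactive partner of the de novo methyltransferases, rose from 4.67 and 4.31 to 6.11 and 6.11 (1.62 ± 0.33, adjusted p = 0.0158), and that call ended with quantile normalization. Both calls ended without undifferentiated replicate 2 or either ML day 1 array. In EB day 1 the level of Dnmt3l was 4.42 and 4.47, not called against ML day 1. The other 7 enzymes were not called. Genes of the 2-cell-like state, a rare and transient condition of stem cells in culture, fell in 3 of 6 measured members, Zscan4c (-2.28 ± 0.38, adjusted p = 0.00898), Tcstv1 (-1.51 ± 0.42, adjusted p = 0.0381) and Usp17la (-1.21 ± 0.27, adjusted p = 0.0194), and all 3 calls ended without ML day 1 replicate 1. These genes belong to families of near-identical copies, so the copy measured is uncertain.

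**Figure D2:**
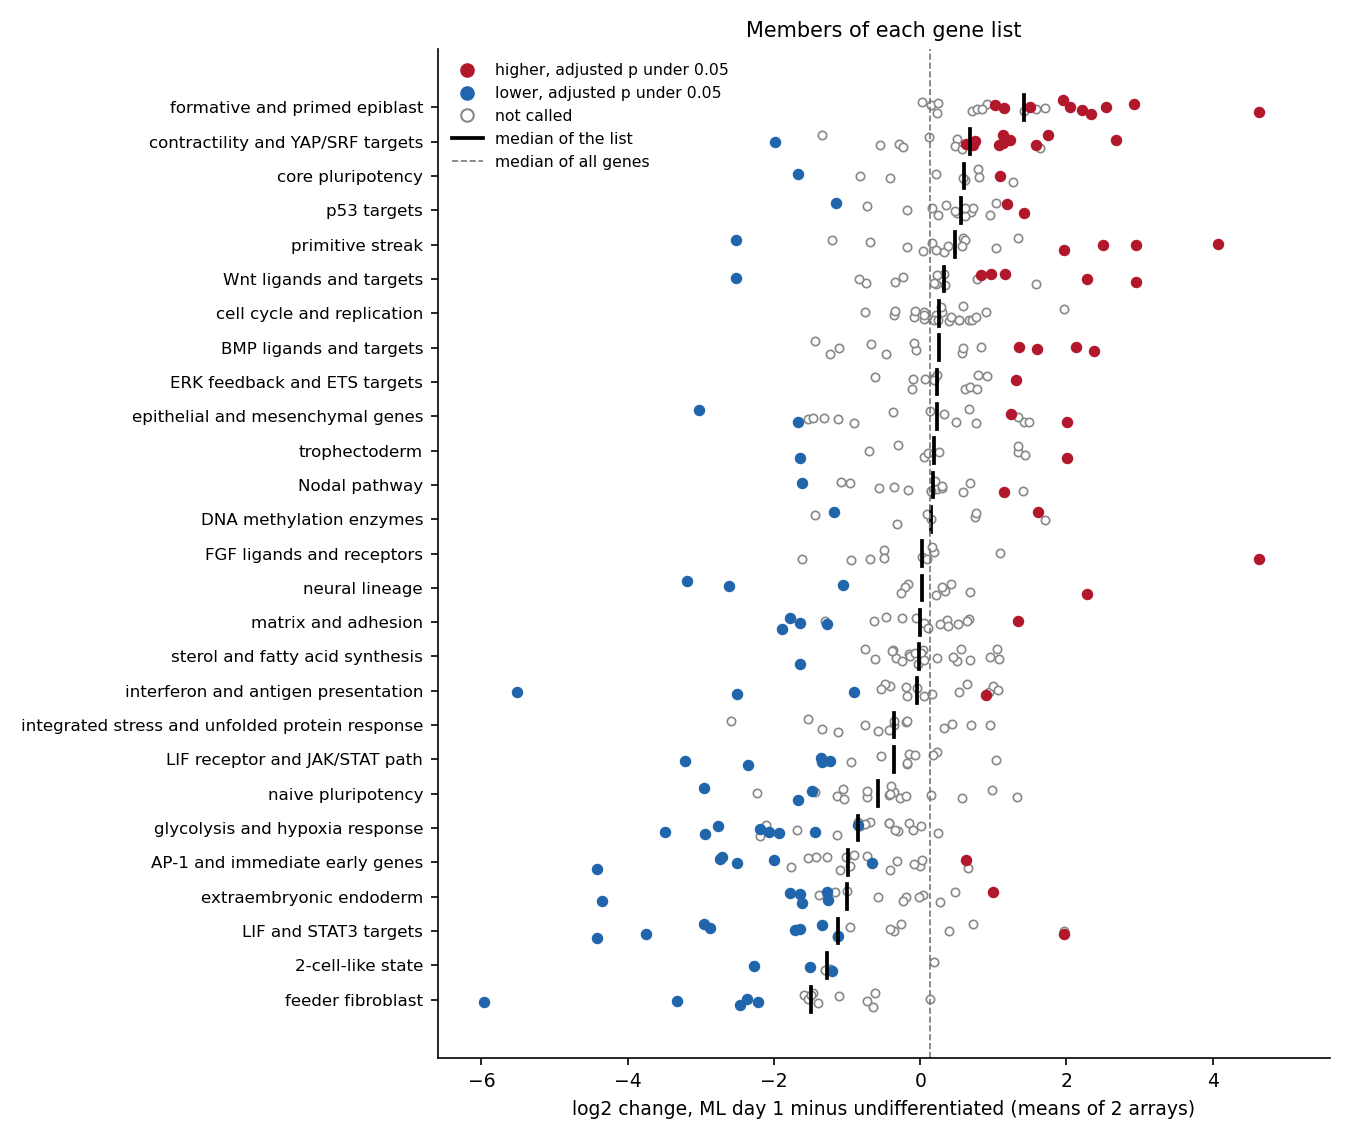
Log2 change of every measured member of 27 gene lists (x axis: ML day 1 minus undifferentiated, means of 2 arrays), filled red or blue where limma called the gene higher or lower and open where it did not, with a black bar at the list's median and a dashed line at the median of all genes (0.14). The formative list lies furthest right (median 1.42), the feeder fibroblast list furthest left (median -1.50), and genes dim in 1 group are drawn at their fitted value, not at a bound.

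A few primitive streak genes rose by day 1. Of 18 measured, 4 rose and 1 fell (11.7% and 6.43% of all genes did), with a median of 0.48. That median was 0.85 without undifferentiated replicate 1, 0.32 without undifferentiated replicate 2 and 0.17 with normexp. Wnt3, the ligand that starts streak formation, went from -2.67 and -2.56 to 0.72 and -0.04, a 7.75-fold rise (2.95 ± 0.44, adjusted p = 0.00723) that ended without ML day 1 replicate 1 (adjusted p = 0.0549). Mixl1, a homeobox gene of the streak, was not well above background in undifferentiated cells and rose at least 3.68-fold (adjusted p = 0.00247), called in all 4 leave-one-out fits but not with normexp background correction. Evx1, a posterior streak homeobox gene, rose at least 4.81-fold (adjusted p = 0.0182), also not called with normexp, nor without undifferentiated replicate 2 or either ML day 1 array. The organiser gene Gsc rose from -4.15 and -3.26 to -1.95 and -1.52 (adjusted p = 0.0493), a call lost with any array left out or with normexp. Cdx1, a posterior homeobox gene, fell at least 1.29-fold (adjusted p = 0.0299), a call lost in the same fits. T itself stood at -3.67 and -4.51 in undifferentiated cells and -3.68 and -3.33 in ML day 1 (0.59 ± 0.63), with overlapping arrays, and Eomes had a difference of 1.03 ± 0.59; neither was called. Cer1 was not well above background in either group. Higher calls numbered 3, 2, 1 and 2 with the 4 arrays left out in turn and 1 (Wnt3) with normexp.

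BMP, Nodal and Wnt signals pattern the epiblast. In the BMP list 4 of 14 rose, where 11.7% of all genes did, all of them known targets of BMP and SMAD signalling. The list's median was 0.26 (all genes 0.14), and 7 of the 14 changes were above 0. Id1, an inhibitor of basic helix-loop-helix factors, went from 2.41 and 1.30 to 4.44 and 4.02 (2.38 ± 0.36, adjusted p = 0.00731, 5.19-fold). Id2 went from 1.04 and 0.90 to 3.18 and 3.00 (2.12 ± 0.37, adjusted p = 0.00971), although 1 of its 3 probes gave -0.18 and the mean of its probes was not called. Msx1 (1.60 ± 0.32) and Id3 (1.36 ± 0.38) rose by less, and the call of Id3 ended with quantile normalization. The ligand Bmp4 had a difference of -0.05 ± 0.72 and was not called. Leaving out the 4 arrays in turn gave 4, 1, 0 and 1 higher calls. In the Nodal list, Nodal rose and its co-receptor Tdgf1 (Cripto) fell from 4.02 and 4.32 to 2.13 and 2.96 (-1.62 ± 0.42, adjusted p = 0.0299), while the other 14 members were not called. In the Wnt list 5 of 17 rose and 1 fell (11.7% and 6.43% of all genes did). Beside Wnt3 and Cdx1, these were the feedback gene Axin2 (1.16 ± 0.31, adjusted p = 0.0325), the receptor gene Lgr5, well above background on 1 of the 2 ML day 1 arrays (at least 1.35-fold, adjusted p = 0.0143), Wnt7b (0.97 ± 0.22) and Fzd2 (0.83 ± 0.21). The calls of Axin2 and Lgr5 ended with normexp and that of Fzd2 with quantile normalization. Wnt calls numbered 6, 1, 0 and 1 in the higher direction under the same omissions.

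Markers of other lineages were checked beside these. Of 12 neural genes, 1 rose and 3 fell (11.7% and 6.43% of all genes did). Zic1 rose at least 2.72-fold from below background (adjusted p = 0.00541), called in all 4 leave-one-out fits but not with normexp. The Notch target Hes5 fell from 0.83 and 1.12 to -1.86 and -2.58 (adjusted p = 0.0289), and Map2 (-1.06 ± 0.32) fell too. Sox1 and Pax6, the defining early neural genes, had differences of 0.34 ± 0.24 and 0.42 ± 0.52 without a call. Among 17 extraembryonic endoderm genes, 6 fell and 1 rose, where 6.43% of all genes fell and 11.7% rose. The receptor gene Pdgfra fell at least 6.75-fold (adjusted p = 0.00964), and the basement membrane genes Lama1 (-1.78 ± 0.34), Col4a2 (-1.65 ± 0.41) and Col4a1 (-1.27 ± 0.34), the endoderm factor Gata6 (-1.61 ± 0.45) and the adaptor Dab2 (-1.26 ± 0.36) fell by less. Sparc, a matrix glycoprotein, rose (0.99 ± 0.30, adjusted p = 0.0497). The lower calls in that list numbered 2, 2, 0 and 0 with the 4 arrays left out in turn. The log2 of the list's summed signal was 4.41 and 4.17 in undifferentiated cells and 4.98 and 4.43 in ML day 1, so the sum did not fall. Of 10 trophectoderm genes, Krt8, a simple-epithelium keratin, rose from 3.45 and 3.73 to 6.40 and 4.79 (adjusted p = 0.0324), with ML day 1 replicate 1 well above replicate 2. Tfap2c fell (-1.64 ± 0.45, adjusted p = 0.037). That is 1 higher and 1 lower among 10, where 11.7% and 6.43% of all genes were. The calls of Map2, Gata6, Dab2, Sparc and Krt8 ended with quantile normalization, and those of Hes5, Map2, Col4a2, Gata6, Col4a1, Sparc and Tfap2c with any single array left out. The call of Pdgfra ended with normexp.

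Genes of the contractile cytoskeleton, which the factors SRF and YAP drive in spread cells under tension, rose in part over undifferentiated cells and lay higher in the monolayer than in embryoid bodies. Against undifferentiated cells, 10 of 20 rose and 1 fell (11.7% and 6.43% of all genes did), with a median of 0.67. With quantile normalization or the authors' values 3 rose and none fell, at a median of 0.32. Myl9, a regulatory myosin light chain, stood at 1.93 and 1.73 in undifferentiated cells, 2.24 and 2.53 in EB day 1 and 4.33 and 4.69 in ML day 1. It rose 6.41-fold over undifferentiated cells (2.68 ± 0.28, adjusted p = 0.00247), called in all 4 leave-one-out fits and under every other setting run on it. The actin-binding genes Tagln (3.56 and 4.09 to 5.43 and 5.40, adjusted p = 0.00878) and Cnn1 (1.75 ± 0.28, adjusted p = 0.0085) rose next. Cnn2 (1.13 ± 0.24), Csrp1 (1.23 ± 0.36), Actg2 (1.14 ± 0.23) and the YAP target Ccn2 (1.08 ± 0.31) followed, and Actg1, Acta2 and Srf by less than 1 log2 unit. Ankrd1, a YAP target, fell from 0.55 and 0.02 to -2.33 and -1.06 (-1.98 ± 0.59, adjusted p = 0.0465). Higher calls numbered 6, 3, 1 and 2 with undifferentiated replicates 1 and 2 and ML day 1 replicates 1 and 2 left out in turn.

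Set directly against EB day 1, within 1 scan day but across slides, all 20 members were higher in ML day 1 and none of the 20 overlapped between the groups, where 52.3% of all genes did not overlap. The median difference was 1.14 (all genes 0.06), and it stayed between 0.83 and 1.35 under the other settings that left out no array. Against undifferentiated cells, EB day 1 itself had 1 of the 20 higher (8.09% of all genes) and 4 lower (5.45%), with a median of -0.18. The gap between the cultures thus holds falls in EB day 1 as well as rises in ML day 1. In the direct comparison limma called 3 of the 20, against 0.108% of all genes called higher. Ankrd1 did not rise well above background in EB day 1 (-6.97 and -7.43) and was at least 10.1-fold higher in ML day 1 (adjusted p = 0.0227). Ccn1, another YAP target, stood at -0.58 and -0.61 in EB day 1 and 2.13 and 1.67 in ML day 1 (2.50 ± 0.35, adjusted p = 0.0497, 5.64-fold). Its level in undifferentiated cells, 1.26 and 2.31, overlaps that of ML day 1. Myl9 was 4.36-fold higher than in EB day 1 (2.12 ± 0.28, adjusted p = 0.0444). The matrix glycoprotein gene Thbs1 had a larger difference that missed the threshold (3.70 ± 0.61, adjusted p = 0.076). With single arrays omitted the 3 calls became 1 (ML day 1 replicate 1 omitted) or 0 (any of the other 3 omitted). They also became 1 with quantile normalization, the authors' values or the replicate block, and 0 with no filter on dim probes, with a strict filter (18 members measured) or in a fit on the 4 arrays alone.

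The promoters of 3 members are shown because they hold the SRF motif known as the CArG box, and they were chosen after the values were seen. Each line is the window before the RefSeq start in GRCm38.p6, on the gene's strand, with CArG boxes in capitals. The windows are chr2:156775214-156775463, plus strand, chr10:79988350-79988599, plus strand, and chr17:46556163-46556412, minus strand.
Myl9: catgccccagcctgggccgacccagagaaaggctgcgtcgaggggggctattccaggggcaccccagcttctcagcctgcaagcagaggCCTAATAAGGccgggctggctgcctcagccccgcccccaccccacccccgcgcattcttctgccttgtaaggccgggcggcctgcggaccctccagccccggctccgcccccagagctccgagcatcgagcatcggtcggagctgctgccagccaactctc
Cnn2: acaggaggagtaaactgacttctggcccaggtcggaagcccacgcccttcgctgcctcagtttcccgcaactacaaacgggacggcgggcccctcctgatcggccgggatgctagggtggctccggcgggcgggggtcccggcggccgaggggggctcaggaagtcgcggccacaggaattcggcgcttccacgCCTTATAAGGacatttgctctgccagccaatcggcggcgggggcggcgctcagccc
Srf: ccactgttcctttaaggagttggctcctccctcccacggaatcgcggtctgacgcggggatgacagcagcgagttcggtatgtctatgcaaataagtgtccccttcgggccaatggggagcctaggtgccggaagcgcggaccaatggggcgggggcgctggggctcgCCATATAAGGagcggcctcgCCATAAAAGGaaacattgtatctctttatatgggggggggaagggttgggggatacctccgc
The box begins at -161 in Myl9, at -56 in Cnn2 and at -82 and -62 in Srf. In all, 5 of the 16 members with a window hold one in any of their windows (Cnn2, Myl9, Vcl, Actg1 and Srf). Counted by window rather than by gene, 1.47% of all windows do. The list was put together from known SRF and YAP targets, so this share is not a result of these data. None of the 16 holds TTCNNNGAA or TGACGTCA. Vcl, a focal adhesion gene with a box, was not called against undifferentiated cells (-0.29 ± 0.22), while the windows of Ankrd1 and Cnn1 hold no box.

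**Figure D3:**
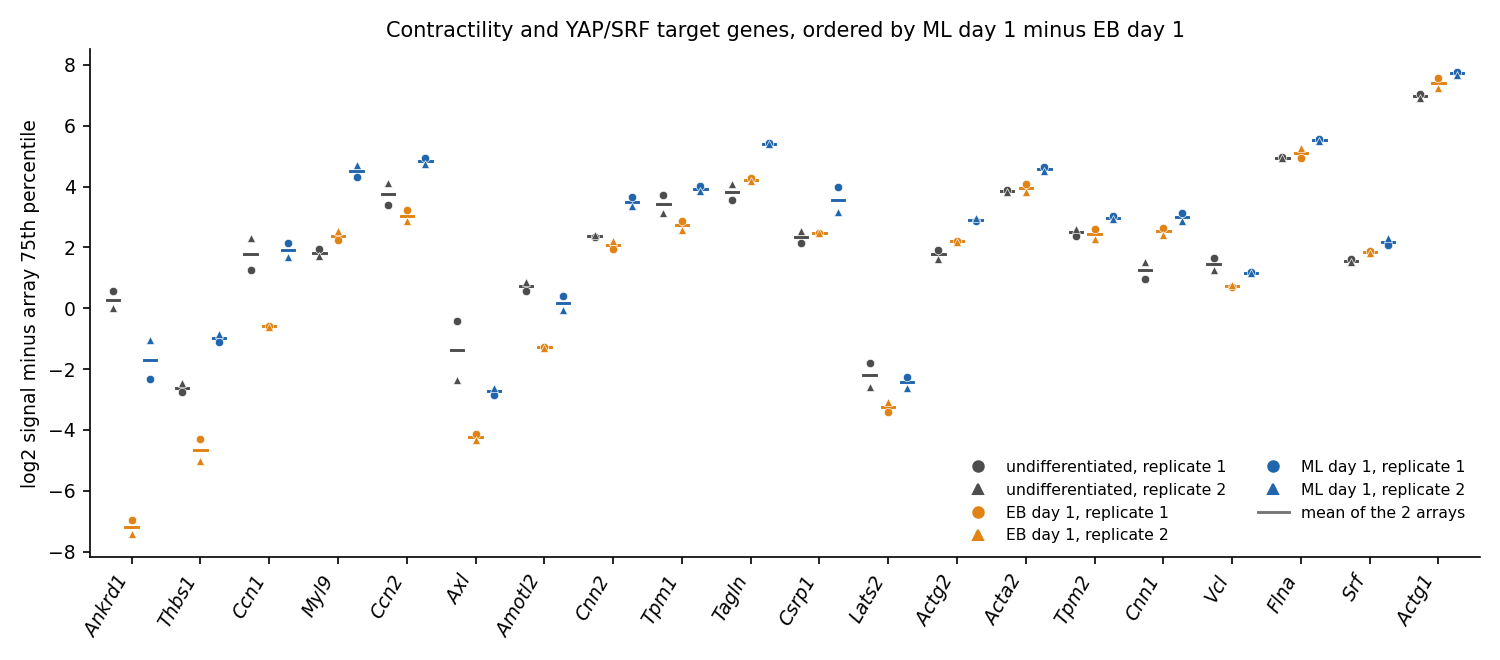
Level of the 20 contractility and YAP/SRF target genes on each array of 3 groups (y axis: log2 signal, 0 at the array's 75th percentile), ordered by the difference between ML day 1 and EB day 1, with bars for the mean of 2 arrays. The blue ML day 1 points lie above the orange EB day 1 points in all 20 genes. Ankrd1 in EB day 1 is not well above background.

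Over all genes the day 1 monolayer and the day 1 embryoid body differed in few calls. Limma called 23 of 17533 (0.131%), 19 higher and 4 lower in ML day 1, against 1630 at an unadjusted p under 0.05. The collagen gene Col8a1 stood at -3.49 and -4.27 in EB day 1 and -0.51 and -0.09 in ML day 1 (3.58 ± 0.45, adjusted p = 0.0334). Lox, a collagen and elastin cross-linking enzyme, was higher in ML day 1 too (at least 6.38-fold, adjusted p = 0.0497). Fabp7, a fatty acid binding protein of neural progenitors, went the other way with 0.63 and -0.53 in EB day 1 and -3.69 and -4.11 in ML day 1 (adjusted p = 0.0497). Mgp, the matrix Gla protein gene, had a level at least 16.1-fold higher in EB day 1 (adjusted p = 0.000415; 0.0228% of all genes were lower in ML day 1). It is the single call present in all 4 leave-one-out fits. The count fell to 1 or 4 when replicate 1 or 2 of EB day 1 was omitted, and to 5 or 1 when replicate 1 or 2 of ML day 1 was.

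Of 18 measured matrix and adhesion genes, 4 fell and 1 rose against undifferentiated cells (6.43% and 11.7% of all genes did). Nid1, which links laminin to collagen IV in basement membranes, fell (3.40 and 2.96 to 1.33 and 1.24, adjusted p = 0.00855) beside Lama1, Col4a1 and Col4a2. The integrin gene Itga3 rose (1.34 ± 0.29, adjusted p = 0.0174), but its 3 probes ranged from -0.16 to 1.44 and their mean was not called. Among 18 epithelial and mesenchymal genes, 2 rose and 2 fell, where 11.7% of all genes rose and 6.43% fell. Krt8 and the tight junction gene Cldn6 (1.24 ± 0.27, adjusted p = 0.0181) rose. Cldn4 (-3.03 ± 0.63, adjusted p = 0.0165) and the repressor gene Zeb1 (-1.67 ± 0.50, adjusted p = 0.0491) fell. Each call named for these lists ended without ML day 1 replicate 1, and those of Zeb1 and Krt8 with quantile normalization.

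Of 24 measured genes of glycolysis and of the response to low oxygen, 8 fell and none rose (6.43% and 11.7% of all genes did). The median was -0.85 (-1.29 without undifferentiated replicate 1). Vegfa, the angiogenic growth factor, stood at 0.13 and 1.41 in undifferentiated cells and -2.74 and -2.71 in ML day 1, an 11.3-fold fall (-3.49 ± 0.62, adjusted p = 0.0105). The prolyl hydroxylase genes Egln3 (-2.94 ± 0.66), Egln1 (-2.19 ± 0.36) and P4ha1 (-2.77 ± 0.52), which hypoxia-inducible factors switch on, fell. The glucose transporter Slc2a3 fell from 5.97 and 7.04 to 4.88 and 4.29 (adjusted p = 0.0236), and Aldoc (-2.07 ± 0.61), Pfkp (-1.44 ± 0.31, with 3 probes from -2.40 to -0.20) and Slc2a1 (-0.85 ± 0.25) fell too. The classical glycolytic genes Ldha (-0.31 ± 0.35), Pgk1 (-1.14 ± 0.42) and Pkm (-0.11 ± 0.35) were not called. Undifferentiated replicate 2 was higher than replicate 1 in 23 of the 24, and the lower calls numbered 9, 1, 0 and 0 with undifferentiated replicates 1 and 2 and ML day 1 replicates 1 and 2 left out in turn. No member was called between ML day 1 and EB day 1.

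Fibroblast genes were measured because stem cells are often grown on feeder layers, though no label mentions feeders. Of 15 measured, 5 fell and none rose (6.43% and 11.7% of all genes did), with a median of -1.50. Mgp was the largest, at -0.62 and -1.50 in undifferentiated cells and not well above background in ML day 1 (at least 16.1-fold lower, adjusted p = 0.000138). It stood at -0.82 and -1.29 in EB day 1. S100a4, a calcium-binding protein of fibroblasts, went from 6.78 and 4.55 to 1.60 and 3.09 (-3.32 ± 0.70, adjusted p = 0.0172), with both pairs of replicates far apart. Col3a1 (-2.46 ± 0.56), the mesenchymal factor Prrx1 (-2.37 ± 0.62) and Col6a1 (-2.22 ± 0.42) also fell. The collagen genes Col1a1 (0.14 ± 0.46) and Col1a2 (-1.46 ± 0.45) were not called. The log2 of the list's summed signal was 7.32 and 5.59 in undifferentiated replicates 1 and 2, and 4.32 and 4.90 in ML day 1. That sum is weighted towards bright probes such as that of S100a4. All 15 were well above background on at least 1 undifferentiated array, and replicate 1 exceeded replicate 2 in 14 of 15, with a median gap of 1.08. All but Mgp were so on at least 1 ML day 1 array. Lower calls numbered 4, 6, 1 and 2 with the 4 arrays left out in turn. The part of such cells in the other changes was not tested.

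**Figure D4:**
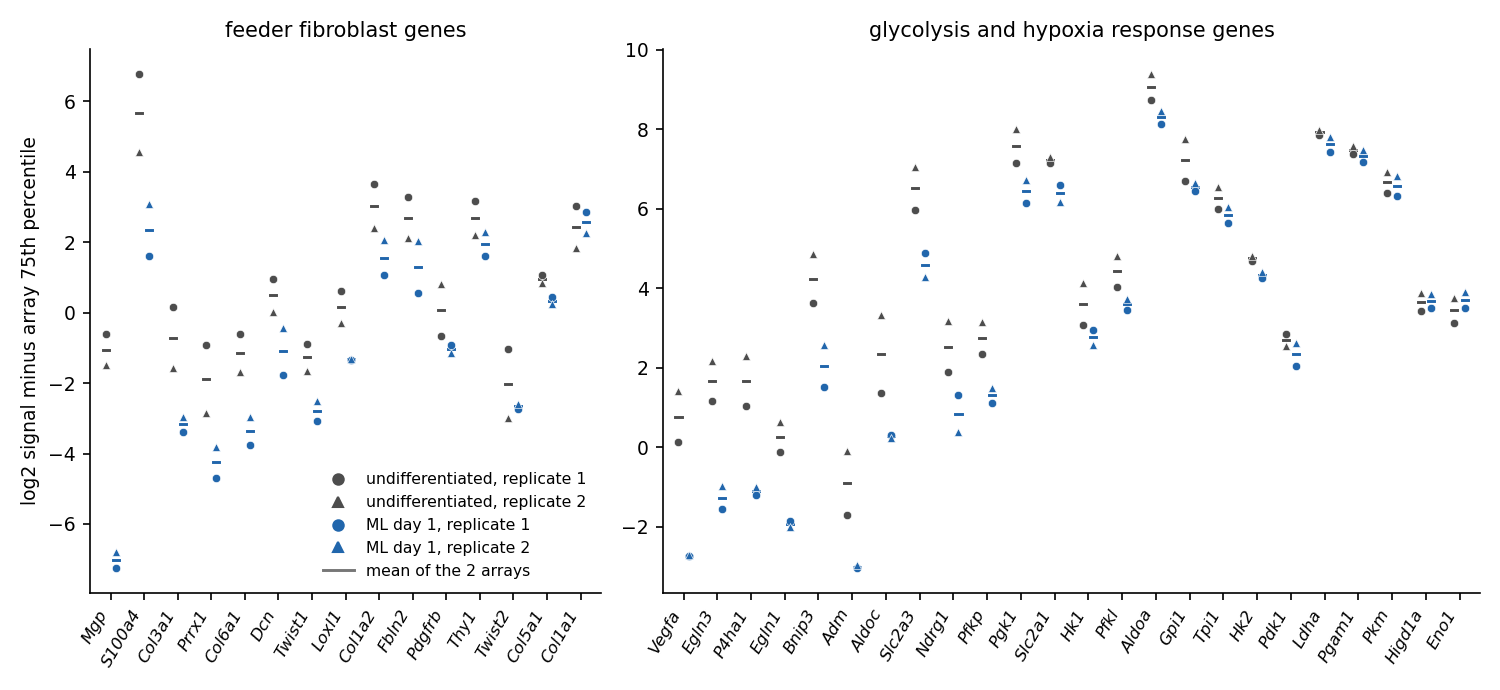
Level of 15 feeder fibroblast genes (left) and 24 glycolysis and hypoxia response genes (right) on each array (y axis: log2 signal, 0 at the array's 75th percentile), undifferentiated in grey and ML day 1 in blue, bars for the mean of 2 arrays, ordered by the change. In undifferentiated cells replicate 1 (circles) lies above replicate 2 (triangles) in 14 of 15 fibroblast genes, and replicate 2 above replicate 1 in 23 of 24 hypoxia and glycolysis genes.

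The 15 largest decreases with separated arrays were mostly genes near background in ML day 1. Stra8, the retinoic acid target that marks germ cells entering meiosis, stood out with 3.02 and 3.44 in undifferentiated cells and -1.84 and -1.13 in ML day 1, a 26.4-fold fall (-4.72 ± 0.54, adjusted p = 0.00324) called in all 4 leave-one-out fits. Its level in EB day 1 was -1.83 and -1.89. The inflammatory caspase gene Casp4 fell at least 18.6-fold, the adhesion gene Vcam1 at least 22.0-fold, the interferon-inducible Ifi204 at least 18.3-fold, Medag at least 17.7-fold, the protease inhibitor A2m at least 13.1-fold and the water channel Aqp1 at least 10.2-fold, and these were called in all 4 fits. The lectin receptor gene Clec1b (at least 11.9-fold) and the endothelial mucin Emcn (at least 6.86-fold) had close replicates. Klra7 (at least 16.3-fold), Klra1 (at least 7.54-fold), Prl2c5 (29.8-fold) and Prl2c3 (23.9-fold) belong to families of similar copies and are uncertain, and Areg (at least 7.27-fold) completes the set with Mgp.

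The 15 largest increases came, Fgf5 apart, from genes that were not well above background on at least 1 undifferentiated array. Besides Fgf5 and Mixl1, Tac4, a tachykinin precursor, rose at least 6.41-fold and the ubiquitin ligase Marchf1 at least 3.18-fold, both called in all 4 leave-one-out fits. The late cornified envelope genes Lce1h (at least 3.97-fold), Lce1f (at least 2.60-fold) and Lce1i (3.55 ± 0.59) rose too, as members of a cluster of similar genes. Slc35d3 went from -4.66 and -6.09 to -1.56 and -1.94 (12.3-fold, adjusted p = 0.00733), and Zfp467 (3.74 ± 0.67), Sftpd (3.52 ± 0.72), the cytokine gene Il7 (at least 4.34-fold), Cxcl5 (at least 2.55-fold), Cyp2a5 (at least 5.94-fold) and Vstm2a (at least 2.74-fold) followed. Slc35d3, Zfp467, Sftpd and Lce1i were well above background on 1 of the 2 undifferentiated arrays. Without ML day 1 replicate 1 or 2 or undifferentiated replicate 1 or 2, the calls of Il7, Cxcl5, Cyp2a5 and Vstm2a held in 1, 1, 1 and 0 of the 4 fits. Cyp1a1 rose at least 6.90-fold from below background, with ML day 1 arrays of -1.83 and -3.96, and its call was lost with any single array left out.

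What the monolayer did next was followed on the same slide, where ML day 3 minus ML day 1 gave 2194 calls (12.5% of genes, 5.8% higher and 6.71% lower). Naive genes fell at this step, 14 of 20 with a median of -2.79. Nr0b1 went from 3.98 and 4.28 at day 1 to -0.02 and -1.20 at day 3, Zfp42 from 5.86 and 5.66 to 2.40 and 2.56 and Esrrb changed by -2.90 ± 0.60. Klf4 and Nanog, which had fallen by day 1, were not called here, Klf4 going from 2.68 and 2.94 to 2.65 and 0.97 and Nanog from 1.75 and 1.37 to 1.63 and 2.54. Streak genes rose, 12 of 18 with a median of 2.50, including T (4.46 ± 0.63), Fgf8 (4.56 ± 0.46) and Mesp1 (3.91 ± 0.68), while Mixl1 was not called (0.59 ± 0.43). Of the formative genes 2 rose and 4 fell. In contrast to their fall at day 1, Fos (2.14 ± 0.57, adjusted p = 0.0398), Jun (2.04 ± 0.46, adjusted p = 0.0217), Socs3 (1.06 ± 0.27, adjusted p = 0.0367) and Pim1 (1.43 ± 0.31, adjusted p = 0.0195) rose from day 1 to day 3. Of their lists, 4 of 17 LIF and STAT3 targets rose and 1 fell, and 6 of 22 immediate early genes rose and none fell. The changes from day 1 to day 3 share the ML day 1 arrays with the values above, so they are not independent of them. The ML day 3 arrays correlated at 0.972, and 18.2% of genes lay at least 2-fold apart between them. The count of calls was 953 without ML day 1 replicate 1, 378 without ML day 1 replicate 2, 872 without ML day 3 replicate 1 and 4729 without ML day 3 replicate 2.

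**Figure D5:**
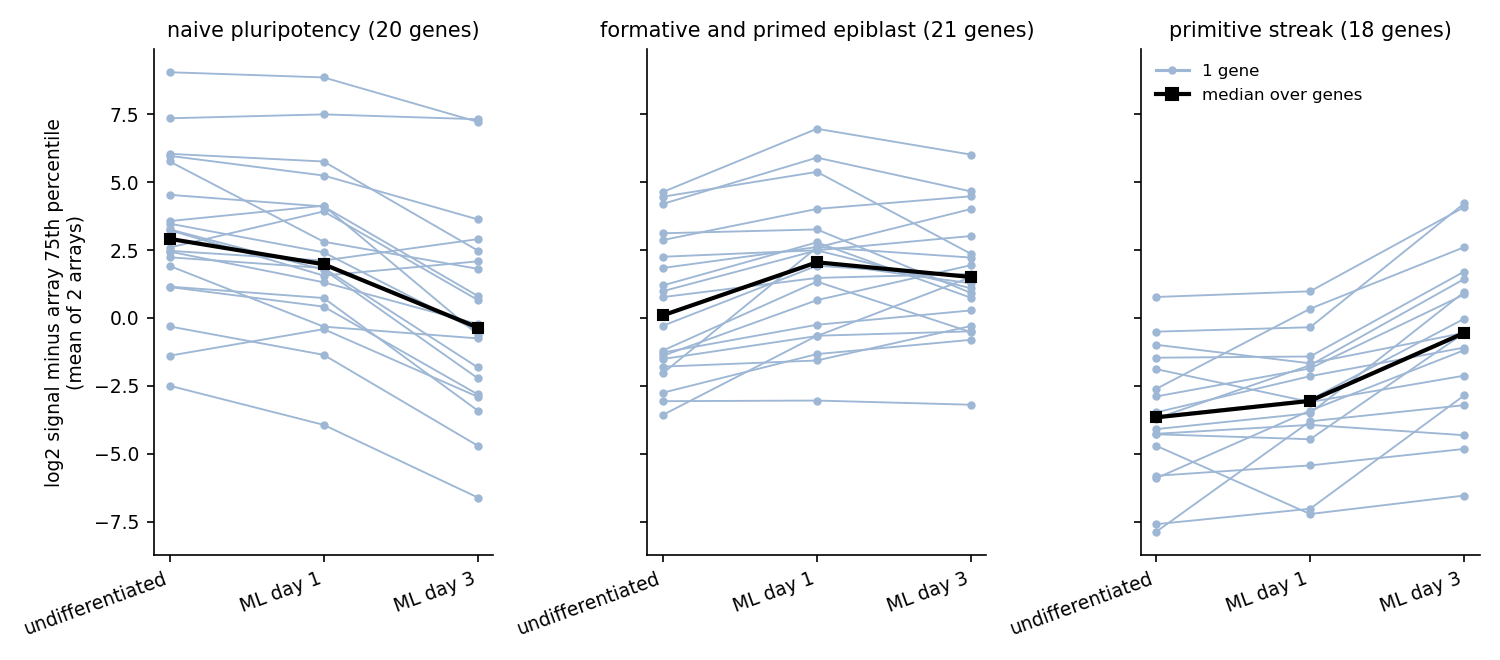
Mean level of each gene (thin lines, mean of 2 arrays) and the median over genes (black squares) in undifferentiated cells, ML day 1 and ML day 3 for 20 naive, 21 formative and 18 primitive streak genes (y axis: log2 signal, 0 at the array's 75th percentile). The naive median goes from 2.91 to 1.98 and -0.35, the formative median from 0.10 to 2.05 and 1.51, and the streak median from -3.66 to -3.05 and -0.55. The undifferentiated arrays are on another slide and scan day than the ML arrays and were read with another version of the scanner software.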

How the data were processed

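Mouse Agilent 1-colour (Cy3) arrays of 6 groups of 2 were analysed. Scanner files hold spot intensity that the authors deposited, background-subtracted within the array and not normalized between arrays, per the file headers. The headers name Agilent Feature Extraction 10.5.1.1, 10.7.1.1 and 10.7.3.1, and the submitters' processing notes give 9.5.1.1. The authors' deposited table of intensity, equalised between arrays (median 36.6 in every column), correlated with the scanner values at 0.998 or more and served as an alternative.

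From the processed signal, log2 was taken and the array's 75th percentile (control spots left out) subtracted. Spots with outlier flags were left out. Of 41174 probes, 32 had no usable spot and 26176 were well above background on both arrays of at least 1 group. The probe with the highest mean stood for each of 17533 genes, of which 15135 had a symbol (probes were named by accession, 27079, by name, 6314, or by the file, 7749). Limma 3.58.1 in R 4.3.3 fitted 6 group means to 12 arrays (6 residual and 3.19 prior degrees of freedom), with Benjamini-Hochberg adjustment within a comparison and a threshold of 0.05. The fit was tested on simulated data. Python 3.11.15 with pandas 2.3.3 made the summaries. The number of arrays limits the precision.

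Where a gene was not well above background on either array of a group, the fold is a bound: the brighter group's mean against, per array, the higher of the lowest signal well above background and the gene's own. Probe positions are those of the files (mm9), and promoters come from RefSeq (GRCm38.p6).

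The members and gene lists were chosen with earlier results of these data known. Some genes stand in several lists, so counts of different lists are not independent. Genes named are a fixed panel, the 15 largest increases and decreases among called genes with a symbol and separated arrays, called list members (up to 8 a list by size) with uncalled members as values, and up to 15 genes called between ML day 1 and EB day 1. A few genes that the rule names are not reported here. List members named beyond the 8 were chosen after their values were seen.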

Additional observations from a re-analysis of the deposited data

Results flagged for a closer look

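The changes from undifferentiated cells to day 1 in monolayers and in embryoid bodies share their controls, so the difference between them is the direct test of ML day 1 minus EB day 1. Limma called 23 genes, and those named here, from the 15 largest, are given as log2 differences with 2 arrays per group. Genes higher in ML day 1 were Ankrd1 (5.51), Eprn (3.81), the unnamed transcript ENSMUST00000154182 (3.71), Col8a1 (3.58), Lce1h (3.54), Lox (3.49), the transglutaminase gene Tgm1 (3.01), Gfod1 (2.71), Ccn1 (2.50), Klhl30 (2.26) and Myl9 (2.12). Genes lower in ML day 1 were Mgp (-5.97), Fabp7 (-3.95) and Ankrd50 (-2.17). Of the genes named here, Mgp was called with each of the 4 arrays left out in turn, and the others lost their call with at least 1 of them. Mgp stood at -0.62 and -1.50 in undifferentiated cells and -0.82 and -1.29 in EB day 1, and was not well above background in ML day 1. Fitted differences of genes that were not well above background in 1 group, such as Ankrd1, Lox and Mgp, are not bounds.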

How the results depend on the processing

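For ML day 1 against undifferentiated, the 3170 calls became 3085 with normexp, 2290 with quantile normalization, 2291 with the authors' values, 2390 with no filter on dim probes, 3142 with a strict filter, 3012 with the mean of probes, 3706 with a trended prior and 324 in a fit on the groups alone. The share of higher calls was 64.4%, and 54.0% with quantile normalization, 54.1% with the authors' values and 70.5% with normexp. The median of all genes moved from 0.14 to 0.32 with no filter on dim probes and to 0.05 with quantile normalization. For ML day 1 against EB day 1, the 23 calls became 12 with quantile normalization, 13 with the authors' values, 16 with normexp, 1 with no filter, 3 in a fit on the groups alone and 0 with a strict filter, where the main limma fit had 1630 genes at an unadjusted p under 0.05. The share of higher calls was 82.6%, and 68.8% with normexp. For ML day 3 against ML day 1, the 2194 calls became 665 in a fit on the groups alone. With 1 array left out the counts ran from 251 to 3434, from 1 to 5 and from 378 to 4729 in these 3 comparisons. The lowest came without ML day 1 replicate 2 in the first and last and without EB day 1 replicate 1 or ML day 1 replicate 2 in the second. The replicate number as a block gave 3039, 5 and 2100 calls. The deviations of same-numbered arrays correlated at -0.16, 0.11 and 0.23, so the number is not shown to pair the samples. A crossed pairing, added after seeing the data, gave 2821 calls in the first comparison. Sox11 reversed with the mean of its probes (-0.20, from 1.02). List medians of DNA methylation enzymes, the Nodal pathway, epithelial and mesenchymal genes and the cell cycle turned negative with quantile normalization (-0.19, -0.02, -0.02 and -0.11). The cause of these changes was not tested, except that groups alone or an array left out mean fewer samples. No 2-cell-like gene was left under the strict filter. Signal over background limits genes dim in 1 group to bounds.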

Other observations

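Of 24 cell cycle and replication genes none was called by limma (18.1% of all genes were), with a median change of 0.26 that turned to -0.11 with quantile normalization and was 0.43 without ML day 1 replicate 1 and 0.16 without replicate 2. Of 22 sterol and fatty acid synthesis genes, the desaturase gene Scd1 fell (1.32 and 1.53 to -0.37 and -0.06, adjusted p = 0.0158) and 21 were not called. Against EB day 1 all 22 sterol genes lay lower in ML day 1, with a median of -0.63 and 17 of 22 without overlap (52.3% of all genes), and none was called. Without ML day 1 replicate 1 the median was -0.38 and 3 of 22 lay higher, and 1 lay higher without EB day 1 replicate 1 or with the mean of probes. Sqle, an oxygen-using enzyme of cholesterol synthesis, was -0.55 ± 0.38 in that comparison. Against undifferentiated cells the list's median was 0.68 in EB day 1, with 3 of 22 called higher (8.09% of all genes), and -0.01 in ML day 1.

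None of 15 integrated stress and unfolded protein response genes was called at day 1, while 9 of the 15 rose from ML day 1 to ML day 3 (5.8% of all genes), among them Chac1 (-0.03 and 0.13 to 5.80 and 4.17) and Trib3 (0.20 and 0.18 to 4.54 and 2.62). Of 16 p53 targets 3 were called, near the 18.1% of all genes. Gtse1 (1.18 ± 0.22, limma adjusted p = 0.0128) and Perp (1.42 ± 0.39, adjusted p = 0.0368) rose and the death receptor gene Fas fell (-1.15 ± 0.25, adjusted p = 0.0179). Cdkn1a, the cell cycle inhibitor p21, had a difference of 0.16 ± 0.31 and was not called. Of 17 interferon and antigen presentation genes, Casp4, Ifit3 (at least 1.90-fold, adjusted p = 0.0289) and the class I gene H2-K1 (-0.91 ± 0.21, adjusted p = 0.0211) fell and Ifitm3 rose (0.90 ± 0.25, adjusted p = 0.0389). Of all genes 6.43% fell and 11.7% rose. The p53 and interferon calls at day 1 other than Casp4 were lost when ML day 1 replicate 1 was left out.

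Of 3 Y-linked genes measured, 2 rose in ML day 1 (11.7% of all genes did), and 1 with quantile normalization or the authors' values. Uty stood at -4.97 and -4.96 in undifferentiated cells and -2.91 and -3.19 in ML day 1 (1.92 ± 0.25, limma adjusted p = 0.00478), called with each of the 4 arrays left out in turn. Eif2s3y rose by less (0.60 ± 0.17, adjusted p = 0.0397), a call lost with any array left out, and Ddx3y had 1.31 ± 0.41 (adjusted p = 0.0549). In EB day 1 Uty stood at -2.97 and -3.24.

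Trophectoderm genes lay higher in ML day 1 than in EB day 1 in 10 of 10 members, with a median of 1.20 and no member called, and in 8 or 9 of 10 when EB day 1 replicate 2 or ML day 1 replicate 1 was left out. The median was 0.69 without ML day 1 replicate 1, 1.98 without ML day 1 replicate 2, 0.63 with normexp and 0.73 with a strict filter (7 measured).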
